A study of Homo sapiens with 4 samples.

Results

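The variant rs2276936 was measured as 12 of the 7270 synthesized oligonucleotides of a massively parallel reporter assay of the FAM13A locus. It lies at position 89726283 of chromosome 4 in the deposited table, whose genome build is not given in the sources used here, and its alleles are A and C. Its members were all oligonucleotides listed under that name: 3 windows named L, C and R, 2 orientations named F and RC, and 2 alleles. They carried 353 of the 218526 tags of the table, with 20 to 33 tags per oligonucleotide, where a tag is an 11-base barcode that identifies its oligonucleotide in sequencing reads. The variant was selected on its allelic difference in window R, orientation F, which was large with both promoters in earlier results of these data. It is labelled as lying near the promoter of the short FAM13A isoform. That nearness, and any exon or intron position, was not analysed here, because 0 of the 606 variant positions of the table fall inside FAM13A in the gene table of GRCh38.p14, so the table uses another build.

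The assay was run in BEAS-2B, an established human bronchial epithelial cell line. Reporter plasmids carried the oligonucleotides together with a weak minimal promoter (minP) or with the strong simian virus 40 promoter (SV40). Each plasmid pool was sequenced as input, and reporter mRNA was sequenced 24 hours after nucleofection. There was 1 library for each of the 4 groups (the input and the RNA of either promoter), so the spread between transfections is unknown. Errors given are standard errors (SE) over tags.

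FAM13A is a protein-coding gene, and variants of it are associated with chronic obstructive pulmonary disease, a disorder of airflow limitation in which the bronchial epithelium takes part. The gene is transcribed from separate promoters into long and short isoforms. In a massively parallel reporter assay, each allele of a variant is placed with many different tags, and the RNA reads of a tag divided by its input reads estimate how strongly the insert drives the reporter. Because the RNA count is divided by the input count, an allelic difference of the ratio can come from either count, and both are given separately below.

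The tags of window R, orientation F, carry the largest allelic difference of the variant, and some are printed here, 5′ to 3′ as the table gives them, to show what was counted. The choice was the 2 tags with the most minP input reads of each allele, the tag at the median rank and the passing tag with the fewest.
A allele, most minP input: gccgtaagatg
A allele, next most: actctacgctt
A allele, median rank: ggctgaaatcg
A allele, fewest: agtgaaccacg
C allele, most minP input: gttcacagcac
C allele, next most: agctggaatac
C allele, median rank: gccgaaacatg
C allele, fewest: ctgcgaactac

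With minP the A tag gccgtaagatg had 559 input and 290 RNA reads, the median A tag ggctgaaatcg had 227 and 82, and agtgaaccacg had 59 and 38. The C tag gttcacagcac had 123 input and 111 RNA reads, the median C tag gccgaaacatg had 54 and 69, and ctgcgaactac had 15 and 203. The A tag at the median thus had more input reads than any of these C tags, while its RNA count lay among theirs. With SV40 ggctgaaatcg had 177 input and 252 RNA reads, and gccgaaacatg had 40 and 145. For ctgcgaactac the SV40 pool held 94 input and 464 RNA reads, so this tag was rare in the minP input and not in the SV40 input. For the remaining A tag, actctacgctt, the counts were 539 and 298 with minP and 594 and 728 with SV40, and for the remaining C tag, agctggaatac, they were 97 and 46 with minP and 55 and 162 with SV40.

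With minP the input library held 29398765 reads, 57681 of them from rs2276936, and the RNA library 11086933, with 11687 from it. With SV40 the input library held 26557676 reads, 36619 from the variant, and the RNA library 24504694, with 24930 from it. Of the 353 tags, 266 had at least 10 input reads with minP and 268 with SV40, the minimum for use below. That was 75.4% and 75.9% of its tags, against 89.5% and 88.2% of all tags in the table. Of the passing tags of the variant, 61 (22.9%) had 0 RNA reads with minP and 31 (11.6%) with SV40, against 13.6% and 8.38% over the table.

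The 12 oligonucleotides were unequally present in the pools. In the minP pool the input reads per tag ran from 7.70 for the C allele of window L, orientation F, to 593 for the A allele of window R, orientation RC, a 77.0-fold range. In the SV40 pool they ran from 3.50 to 375, for the same oligonucleotides. The mean over the table was 134.5 and 121.5 reads per tag. Both alleles of window C in both orientations, and of window L in orientation F, had between 7.70 and 25.6 input reads per tag with minP, at or below the percentile 13.5 of all oligonucleotides. In window L, orientation F, 8 A and 7 C tags passed with minP and 9 and 4 with SV40, fewer than the 10 per allele required, so that construct has no allelic difference below. A construct here is 1 window in 1 orientation with both alleles.

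Window R in orientation F was the part of the variant with high reporter activity. Activity is the mean log2 ratio of RNA to input over the passing tags, minus the mean over all passing tags of the library, so 0 is the average tag and not an empty vector. The C allele stood at 2.90 ± 0.32 with minP (SE over 30 tags), 7.45-fold above the average tag, and at 3.46 ± 0.16 with SV40 (30 tags), or 11.0-fold. These were the percentiles 99.6 and 99.7 of 7006 and 6962 oligonucleotides with enough tags. The construct was chosen for its allelic ratio, so these ranks are descriptions. The A allele of the same construct stood at 0.70 ± 0.20 with minP, 1.63-fold above the average tag and at percentile 80.0, and at 1.11 ± 0.17 with SV40, 2.15-fold and percentile 89.7. The other 10 of the 12 oligonucleotides were below the average tag with each promoter. Among the 8 of those with enough tags, activity lay between -2.28 and -0.88 with minP, at percentiles 1.24 to 17.6, and between -2.00 and -0.84 with SV40, at percentiles 4.70 to 21.8. Activity has no test here, because no control elements are named in the table and each group had 1 library.

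The other orientation of window R was among the low elements. In orientation RC its A allele had an activity of -1.42 ± 0.15 with minP (29 tags) and -1.25 ± 0.18 with SV40 (30 tags). The C allele was at -2.28 ± 0.17 and -1.73 ± 0.15 (33 tags each). The same window was thus above the average tag in F and below it in RC for both alleles and both promoters. In window L, orientation RC, the A allele was at -1.17 ± 0.38 with minP and -0.87 ± 0.37 with SV40, and the C allele at -1.91 ± 0.25 and -1.37 ± 0.24. The 4 elements of window C were at -1.28, -1.46, -1.25 and -0.88 with minP, with standard errors of 0.33 to 0.49, and at -1.46, -0.84, -1.82 and -2.00 with SV40, with standard errors of 0.29 to 0.48, in the order A and C of F, then A and C of RC. No test was run between them.

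The allelic difference of window R, orientation F, is the value for which rs2276936 stands out in the table, so it is given as a description with no test. In ratio of RNA to input, C was 4.58-fold higher than A with minP (C minus A 2.19 ± 0.38 on the log2 scale, SE, 30 A and 30 C tags) and 5.12-fold higher with SV40 (2.36 ± 0.23, 30 and 30 tags). With minP the activity of single A tags ran from -3.12 to 2.86 with a median of 0.83, and that of C tags from -3.34 to 5.86 with a median of 3.08. The alleles overlapped, with 18 of the 30 C tags above every A tag. With SV40 the A tags ran from -2.21 to 2.27 with a median of 1.39, and the C tags from 1.65 to 5.19 with a median of 3.42. There 27 of the 30 C tags lay above every A tag, and 22 of the 30 A tags lay below every C tag. These hold passing tags only. The lowest C tag with minP, gtaagtcttgt at -3.34, had 9 input and 3 RNA reads with SV40. It was below the input minimum there and is left out of the SV40 values. So was the C tag acgattgagac, with 7 input and 171 RNA reads. The SV40 overlap was not counted with these tags included. The construct was chosen for its allelic difference, and the overlap of tags was not counted for other constructs. Both pools carry the same tags, so agreement between the promoters is not an independent repeat.

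The alleles differed in input reads, and their difference in RNA reads was close to its error or below it. Passing A tags had 59 to 559 minP input reads with a median of 232, and C tags 15 to 123 with a median of 54. In the SV40 pool the A tags had 57 to 594 input reads with a median of 213, and the C tags 14 to 155 with a median of 51.5. The ranges overlapped, but the median of A was above the highest C tag in both pools. RNA reads with minP were 5 to 298 with a median of 103 for A, and 1 to 394 with a median of 109.5 for C. With SV40 they were 43 to 728 with a median of 207 for A, and 42 to 927 with a median of 310.5 for C. The RNA counts of the alleles overlapped over nearly their whole range. Both alleles were abundant in RNA without regard to input. Over all listed tags they averaged 113.8 (A) and 123 (C) minP RNA reads per tag against 50.7 over the table, at percentiles 91.2 and 93.0 of all oligonucleotides, and 267 and 300.1 SV40 RNA reads against 112. In minP input the A allele averaged 277 reads per tag, at percentile 89.8, and the C allele 54.2, at percentile 28.9.

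On the log2 scale C minus A was -2.22 ± 0.21 in minP input reads alone and -2.06 ± 0.22 in SV40 input reads alone, that is, A was 4.65-fold and 4.17-fold more abundant in the plasmid pools. In RNA reads alone it was -0.023 ± 0.37 with minP and 0.30 ± 0.28 with SV40. The approximate 95% intervals of these RNA differences were -0.74 to 0.69 and -0.25 to 0.84, both below the difference of the ratio. By size, the input differences were at the percentile 99.6 of 3469 constructs with minP and 99.6 of 3439 with SV40. The RNA differences were at percentiles 3.72 and 38.0. The construct was chosen for its ratio, which holds these counts, so the ranks are descriptions. Counted over all listed tags, C made up 16.8% of the minP input reads of the construct (95% exact binomial interval 16.1% to 17.5%) and 52.7% of its minP RNA reads (51.6% to 53.9%). With SV40 its share was 19.1% of input reads (18.3% to 19.9%) and 53.7% of RNA reads (53.0% to 54.5%). These intervals cover counting error only, since PCR reads without molecular identifiers are not independent molecules.

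With minP, the allelic difference of the ratio in window R, orientation F, was smaller within a narrower input range. Input is the denominator of the ratio, and whether choosing tags by input itself moves this value was not tested. Among tags with 50 to 200 input reads, a range chosen after the counts were seen so that both alleles had enough tags, C minus A was 1.30 ± 0.49 with minP (13 A and 17 C tags) and 2.22 ± 0.26 with SV40 (14 and 15 tags). Tags of the alleles did not differ in base composition to any extent that the means show, with 49.3% G and C for A and 49.1% for C.

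Input counts of the C tags of window R, orientation F, did not go together between the pools, while their RNA counts did. Over the 28 C tags passing in both pools, Pearson's r of log2(reads + 1) was 0.0096 between the input libraries and 0.930 between the RNA libraries. Over the 30 A tags it was 0.885 and 0.929. The median over 6688 oligonucleotides was 0.614 between inputs and 0.875 between RNA libraries, and the value of the C tags between inputs was at percentile 2.59. It was not the lowest of the variant: over the 15 passing A tags of window C, orientation RC, r was -0.31 between inputs, at percentile 0.434, and 0.532 between RNA libraries. Between input and RNA of the same promoter, r over the C tags was 0.036 with minP and 0.522 with SV40, and over the A tags 0.536 and 0.624, with medians over oligonucleotides of 0.402 and 0.368. These are descriptions across tags of 1 oligonucleotide, which share the plasmid pools and library depth. Whether the low agreement of the C tags plays a part in the allelic ratio was not tested.

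In window R, orientation RC, the direction was the other way, with A higher than C, and here the RNA counts differed. RNA reads of passing A tags ran from 6 to 197 with a median of 42.0 with minP, and those of C tags from 0 to 89 with a median of 21.0. With SV40 the medians were 58.5 for A, with a range of 0 to 405, and 25.0 for C, with a range of 0 to 107. The alleles overlapped in both libraries. In RNA reads alone A was 2.31-fold higher with minP (C minus A -1.21 ± 0.31, 29 A and 33 C tags, permutation test, adjusted p = 0.0419) and 2.59-fold higher with SV40 (-1.37 ± 0.37, 30 and 33 tags, permutation test, adjusted p = 0.0270). Over all listed tags the minP value was -1.02 and no longer passed (permutation test, adjusted p = 0.201).

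The input counts of that construct differed in the same direction and by less. C minus A was -0.35 ± 0.17 in minP input reads (permutation test, adjusted p = 0.365) and -0.89 ± 0.24 in SV40 input reads (permutation test, adjusted p = 0.0162). The ratio of RNA to input was therefore 1.81-fold higher for A with minP (-0.86 ± 0.23, permutation test, adjusted p = 0.0178) and 1.40-fold higher with SV40 (-0.48 ± 0.24, permutation test, adjusted p = 0.640, approximate 95% interval -0.95 to -0.017). The median input counts were 578 for A and 429 for C with minP and 373.5 and 163 with SV40, so this was the most deeply covered construct of the variant. C made up 48.1% of its minP input reads and 32.5% of its minP RNA reads, and 36.5% and 25.3% with SV40. The p-values of all these tests measure the spread between tags within 1 transfection, or for input reads alone within 1 plasmid pool. They were adjusted over all constructs of the library.

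In window L, orientation RC, the C allele was the more abundant in the pools. It had 3.29-fold more minP input reads than A (C minus A 1.72 ± 0.25, 30 A and 32 C tags) and 2.60-fold more SV40 input reads (1.38 ± 0.21), and both passed the permutation test (adjusted p = 0.000754 and 0.000782, from the smallest p that 100000 permutations can give). Its RNA reads were 1.97-fold higher with minP (0.98 ± 0.50) and 1.84-fold higher with SV40 (0.88 ± 0.45), and neither passed (permutation tests, adjusted p = 0.582 and 0.613). The ratio had the other sign, -0.74 ± 0.45 with minP and -0.50 ± 0.44 with SV40, and did not pass (permutation tests, adjusted p = 0.782 and 0.860). Their approximate 95% intervals were -1.62 to 0.15 and -1.36 to 0.36. The size of this ratio difference depended on how tags were combined: from summed reads it was -1.48 with minP and -1.37 with SV40, without tags at 0 RNA reads it was -1.44 with minP (permutation test, adjusted p = 0.0520), and with an input minimum of 50 it was -0.42 and -0.084 (permutation tests, adjusted p = 0.930 and 0.989). In this construct as in window R, orientation F, the alleles differed more in input reads than in RNA reads.

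Window C gave no allelic difference past the threshold in the ratio, the RNA or the input of either promoter. In orientation F the ratio of C minus A was -0.18 ± 0.64 with minP (17 A and 11 C tags) and 0.62 ± 0.67 with SV40 (14 and 14 tags). In orientation RC it was 0.37 ± 0.51 (19 and 20 tags) and -0.17 ± 0.54 (20 and 22 tags). The standard errors in orientation F were above the median over all constructs, 0.48 with minP and 0.53 with SV40, and those in RC were close to it. The median RNA count of a passing tag was at most 4.5 reads with minP and 5.0 with SV40. The 95% intervals of the ratio, -1.44 to 1.08 in orientation F and -0.63 to 1.37 in RC with minP, include differences over 2-fold. In RNA reads of orientation RC with minP, C minus A was 1.09 ± 0.49, and in input reads it was 0.72 ± 0.23, and neither passed (permutation tests, adjusted p = 0.503 and 0.0763).

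Read against the whole table, 1 of the 5 constructs of the variant differed over 2-fold in the ratio with each promoter, the one it was selected on, where 7.41% of all constructs did with minP and 10.3% with SV40. In input reads it was 2 of 5 in each pool, against 2.08% and 1.95% of all constructs. Of these, window R, orientation F, was the selected construct, whose ratio holds these input counts, and the other was window L, orientation RC. In RNA reads it was 2 of 5 with minP against 9.83%, and 1 of 5 with SV40 against 13%. Of the 4 constructs that were tested, 1 passed in the ratio with minP and 0 with SV40, where 1.47% and 0.989% of all constructs passed. For the SV40 count of 0, an unadjusted p of 0.0443 was found in window R, orientation RC (permutation test), and above 0.05 in the other 3. In RNA reads 1 of 4 passed with each promoter, against 0.865% and 1.31%. In input reads 1 of 4 passed with minP and 2 of 4 with SV40, against 4.01% and 3.31%.

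In window R the allelic difference of the ratio had opposite signs in F and RC. The allelic difference of F minus that of RC was 3.05 ± 0.44 with minP and 2.84 ± 0.33 with SV40. These contain the construct that was picked for its value and have no test. By size they were at percentiles 99.2 and 99.5 of 1661 and 1633 windows, of which 18.5% and 23% differed over 2-fold. Those ranks hold the value used for the choice, so they are no separate evidence. In window C the same quantity was -0.54 ± 0.82 with minP and 0.79 ± 0.86 with SV40, and neither passed (permutation tests, adjusted p = 0.948 and 0.887, where 1.2% and 0.429% of windows passed).

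No allelic difference between the promoters passed the test. For each tag the minP ratio minus the SV40 ratio was taken and compared between the alleles, over tags passing in both pools, which compares these libraries and not the promoters. C minus A of that difference was 0.075 ± 0.25 in window R, orientation F (30 A and 28 C tags, no test). It was -0.32 ± 0.20 in window R, orientation RC, -0.24 ± 0.35 in window L, orientation RC, and 0.032 ± 0.69 in window C, orientation RC (permutation tests, adjusted p = 0.932, 0.974 and 0.998). Of all constructs 0.061% passed this test and 2.65% differed over 2-fold, as did 0 of the 4 here. The approximate 95% interval in window R, orientation RC, was -0.71 to 0.061, and in window C it was -1.31 to 1.38. Differences within those bounds were not excluded.

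No other variant of the table lay within 200 positions. The nearest were rs75581102 at 89725505, 778 positions away, and rs17747350 at 89727562, 1279 positions away. With minP their allelic differences of the ratio ran from -0.51 to 0.98 over 5 constructs and from -0.98 to 0.22 over 6. These are the alphabetically later minus the earlier allele, and 0 were past 2-fold, against 7.41% of all constructs. With SV40 the differences ran from -1.66 to 0.89 for rs75581102, with 2 of 6 past 2-fold, and from -1.02 to 0.62 for rs17747350, with 1 of 6. Of all constructs 10.3% were past 2-fold with SV40. In the ratio 0 passed with either promoter, where 1.47% and 0.989% of all constructs did (permutation tests). The unadjusted p of that test was under 0.05 for 1 construct, of rs17747350 with SV40. In SV40 RNA reads 4 of 6 constructs of rs75581102 and 1 of 6 of rs17747350 were past 2-fold, against 13% of all constructs. The 4 of rs75581102 had standard errors of 0.44 to 0.91. In SV40 RNA 0 passed, against 1.31% (permutation tests, with an unadjusted p under 0.05 for 3 and 1). In minP input reads 1 of 5 constructs of rs75581102 passed, against 4.01% of all constructs, with differences from -1.15 to -0.31, and 0 of 6 of rs17747350, with differences from -0.53 to 0.20 (permutation tests, with an unadjusted p under 0.05 for 2 and 1). In SV40 input reads 0 of 6 passed for either variant, against 3.31% (permutation tests, with an unadjusted p under 0.05 for 2 of rs75581102 and 0 of rs17747350).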

How the data were processed

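Per the labels, oligonucleotides on an Agilent array were cloned with 2 promoters, transfected into BEAS-2B cells and sequenced with single reads of 36 nt. The deposited table holds whole-number read counts per tag. How reads were matched, filtered or deduplicated is not given in the sources used here. Columns were matched to the 4 libraries by title. Counts were used with Python 3.11.15, numpy 2.4.6, pandas 2.3.3 and scipy 1.17.1. The tag ratio was log2 of RNA count plus 1 over the library total, minus the same for input, for tags with at least 10 input reads. Constructs needed 10 tags per allele. Allele names were permuted over tags (two-sided, 100000 resamples, smallest p 1e-05), or within each orientation for the difference between orientations, with Benjamini-Hochberg adjustment over all constructs or windows of a measure at 0.05. The allelic test of the ratio was tried on real tag ratios with shuffled allele names, with and without a planted difference. The other measures were not part of that trial. The 95% intervals are the difference ± its SE times the normal quantile. With 1 library per group, count models for replicates were not used. The variant, lists and tests were chosen with earlier results of these data known. All oligonucleotides of the variant were described. Single tags were named by the rank of their minP input count, and the tags below the minimum after their values were seen. Alternatives changed the input minimum, the pseudocount, the treatment of tags with 0 RNA reads, the average over tags and the reference of activity.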

Additional observations from a re-analysis of the deposited data

Results flagged for a closer look

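Tags below the minimum of 10 input reads were left out of the comparisons. They were flagged because their summed RNA reads were above 3 with each promoter. With minP, 87 of the 353 tags of rs2276936 were below it and together had 537 RNA reads. With SV40, 85 tags were below it and had 559 RNA reads. In window R, orientation F, 2 C tags with 2 minP input reads in all had 304 minP RNA reads. These were ggtgaaccaat, with 1 input and 254 RNA reads in minP and 63 and 449 in SV40, and agtaactcact, with 1 and 50 in minP and 14 and 131 in SV40. Other C tags of this construct were below the minimum in SV40 only. The tag acgattgagac had 7 input and 171 RNA reads in SV40 and 16 and 51 in minP. The tag gtaagtcttgt was low in RNA, with 9 and 3 in SV40 and 91 and 1 in minP. The A tag tcgccaagatc, below the minimum in both pools, had 1 and 0 in minP and 0 and 2 in SV40.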

How the results depend on the processing

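No analysis paired across repeat transfections was possible because each group had 1 library. The ratio and the difference between promoters compared libraries within the same tag. For window R, orientation F, the ratio, RNA and input differences stayed within their approximate 95% interval over tags under 35 of 36 alternatives. Leaving out tags with 0 RNA reads, counted among these, could change nothing, because 0 passing tags of this construct had 0 RNA reads. The exception to the 35 was the ratio with minP among tags with 50 to 200 input reads (1.30). Moves larger than 1 SE were also seen for the minP ratio with an input minimum of 50 (1.67) and, with the median over tags, for the SV40 ratio (2.02) and SV40 RNA (0.58). The minP RNA difference, -0.023, lay between 0.041 and 0.21 over all listed tags, over tags passing in both pools, and with the median or mean reads per tag. Tags with 10 to 100 input reads left fewer than 10 of the A allele there, so no value was had. The number of other constructs past the threshold fell from 1 to 0 in the minP ratio with 10 to 100 and with 50 to 200 input reads, where window R, orientation RC, had too few tags, and from 1 to 0 in minP RNA over all listed tags. In window C, values that passed no threshold changed sign: the minP ratio to 0.64 in orientation F and -0.34 in RC with an input minimum of 1, the SV40 ratio in RC to 0.16 and SV40 RNA in RC to 0.52 with tags passing in both pools, SV40 RNA in RC to 0.016 with a pseudocount of 0.5, and RNA in F over all listed tags to 0.094 with minP and -0.11 with SV40. With the median over tags, so did the minP ratio in F (0.32), the SV40 ratio in RC (0.57) and SV40 RNA in RC (0.21), and with mean reads per tag SV40 RNA in F (-0.34). Against the median tag, activity of window R, orientation F, with SV40 was 0.75 for A and 3.11 for C. In window L, orientation F, too few tags passed the input minimum for a comparison.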
